A study of Caenorhabditis elegans with 2 samples.

Results

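The str genes are a family of seven-transmembrane chemoreceptor genes of Caenorhabditis elegans, taken here as the protein-coding genes of the WBcel235 annotation whose symbol is str- and a number. The rule found 193 gene identifiers among 19985 protein-coding genes, of which 19973 are nuclear. The identifiers carry 190 symbols, because str-257, str-258 and str-267 each name a pair of identifiers. The family was chosen on the number of CEH-43 peak summits near its genes, so its counts below are a description with no test.

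CEH-43 is the worm's Distal-less type homeodomain transcription factor, a class of proteins that bind DNA at a short core with the letters TAATTA or TAATTG. It is known for its part in the development of the anterior hypodermis and in the identity of dopamine neurons. The str receptors belong to a large superfamily of G protein-coupled receptors, and those with known sites of expression are found mainly in chemosensory neurons, where they detect odours and other chemicals. Worm chemoreceptor genes often stand in clusters on the arms of chromosome V, where recent duplicates lie side by side.

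Binding was measured by ChIP-seq in 1 group with 2 biological replicates: embryos of strain OP699, which carry the unc-119(tm4063) mutation and the transgene wgIs699, made of ceh-43::TY1::EGFP::3xFLAG and a rescuing unc-119(+). The stage was mixed embryonic with a stated age of 3 hours after collection by egg bleaching, and males and females were pooled. Both replicates carry the unc-119 mutation and the tagged CEH-43 transgene, the stated genotype has no change to the worm's own ceh-43, and the antibody was against GFP. Chromatin came from whole embryos and was sonicated to between 200 and 800 bp, so binding in a few cells and weak binding in many cannot be told apart. An untagged strain and later stages, in which sensory neurons are mature, were not analysed here, and the peak lists hold no expression values against which cell types could be checked.

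Of the 4 deposited peak lists, the thresholded list held 998 summits (the position of highest signal in each peak), the relaxed list from both replicates 30000, the relaxed list of replicate 1 29979 and that of replicate 2 26127. The thresholded summits were the 998 of highest signal in the relaxed list from both replicates. The relaxed lists include background by their own label, so a summit in them is not a binding call. A gene was counted when its start was the nearest protein-coding start to a summit and lay within 2000 bp. Signal values are the authors' own. Their scale was not given in the sources used here. They are compared within a list. Rank 1 is the strongest summit of a list.

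The sequences at 7 summits are shown because they are the sites with the highest signal at str genes that hold contrasting letters: a site without the homeodomain core beside a small RNA gene, sites with several copies of it, and a tandem repeat. Each is the 101 bases centred on the summit, read 5′ to 3′ on the + strand of the RefSeq copy of WBcel235 (ce11). Capitals mark TAATTA or TAATTG on either strand, so that TAATTG on the other strand is printed as CAATTA. In the str-56 window they mark TCGAAC, which is GTTCGA on the other strand, letters found in the promoter element inside tRNA genes. The str-56 window is chrV:15873925-15874025, downstream of the gene, and the str-205 window is chrV:4929957-4930057, upstream. The str-71 window is chrV:15459454-15459554, upstream of the gene. The str-44 windows are chrIV:7176433-7176533, upstream, and chrIV:7178076-7178176, in a coding exon. The str-206 window is chrV:6217730-6217830 and the str-221 window chrV:1638826-1638926, both upstream.
str-56: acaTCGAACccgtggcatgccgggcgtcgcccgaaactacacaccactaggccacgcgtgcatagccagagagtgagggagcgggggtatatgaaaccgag
str-205: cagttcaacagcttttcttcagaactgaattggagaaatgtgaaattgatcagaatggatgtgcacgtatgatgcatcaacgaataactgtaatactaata
str-71: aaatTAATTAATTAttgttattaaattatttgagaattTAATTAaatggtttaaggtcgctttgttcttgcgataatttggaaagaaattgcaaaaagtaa
str-44 upstream: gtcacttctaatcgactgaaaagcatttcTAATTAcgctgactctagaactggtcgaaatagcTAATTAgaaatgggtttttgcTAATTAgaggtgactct
str-44 coding exon: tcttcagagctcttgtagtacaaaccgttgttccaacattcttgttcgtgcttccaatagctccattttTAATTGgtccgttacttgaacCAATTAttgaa
str-206: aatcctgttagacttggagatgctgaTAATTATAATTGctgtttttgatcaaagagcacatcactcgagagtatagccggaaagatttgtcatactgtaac
str-221: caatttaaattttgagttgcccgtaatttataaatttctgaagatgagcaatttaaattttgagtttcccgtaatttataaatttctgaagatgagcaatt

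In the thresholded list 1 of 193 str genes had a summit (0.518%, exact 95% interval 0.0131 to 2.85), against 588 of 19780 other protein-coding genes (2.97%, 2.74 to 3.22) and a share of 2.95% over all nuclear protein-coding genes. Intervals throughout are exact (Clopper-Pearson), treat genes as independent and cover counting error only. The other chemoreceptor families, which share the fold and the chemosensory role, had 9 of 1110 genes with a thresholded summit (0.811%). No other str start lay within 2000 bp of a thresholded summit, and the median distance from a str start to the nearest one was 105859 bp.

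The single thresholded str gene was str-56 (WBGene00006121, chromosome V, 15872573 to 15873770, + strand), on an arm of that chromosome. Its summit had a signal of 1010 and rank 17 in the list from both replicates, a signal of 414 and rank 24 in replicate 1, and a signal of 593 and rank 11 in replicate 2. All 3 lists thus placed it among their strongest summits. The summit was 1402 bp past the start of str-56 and 205 bp past its end. It lay 49 bp from the start-side end of T06C12.16, a small nucleolar RNA gene on the opposite strand (WBGene00045140, chromosome V, 15873855 to 15873926). The interval was 385 bp long, against the usual 456 bp, and the GC content of its window was 61.4%, against a median of 34.7% over all 92 str summits. As the printed sequence shows, this window held no TAATTA or TAATTG and held GTTCGA.

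Of the 998 thresholded summits, 160 lay within 100 bp of a tRNA gene and 227 within 100 bp of a tRNA, snoRNA, snRNA or rRNA gene. Without summits within 100 bp of a tRNA gene, str-56 was still counted, as 1 of 193 str genes, and 510 of 19780 other genes had a summit (2.58%), with 2.56% over all genes. Without summits within 100 bp of a tRNA, snoRNA, snRNA or rRNA gene, an alternative chosen after seeing the data, 0 of 193 str genes were left, which allows a share of up to 1.55% taken as 3 genes and 1.89% as the exact upper bound. The other genes then had 2.39% and all genes 2.37%. Near a snoRNA gene stood 55 of 975 nuclear thresholded summits, with a median signal of 365 against 185 over all 975. GTTCGA stood within 50 bp of 27.3% of the 55 that were not also near a tRNA gene, 46.1% of the 154 near a tRNA gene and 4.18% of the 766 near neither. The part of small RNA genes in the str-56 peak was not tested.

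In the relaxed list from both replicates 68 of 193 str genes had a summit (35.2%, 28.5 to 42.4), against 10369 of 19780 other genes (52.4%, 51.7 to 53.1), 421 of 1110 other chemoreceptor genes (37.9%) and 52.3% of all genes. The str share was 0.672 times that of the other genes. The stretch around a gene's start that is nearer to it than to any other start, up to 2000 bp on each side and called the assignable length here, had a median of 2889 bp for str genes and 2926 bp for the others. Per 100 kb of that length, str genes had 16.8 summits and other genes 30.0. Nearly the same lower density was found in the other chemoreceptor genes, at 18.1.

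**Figure D1:**
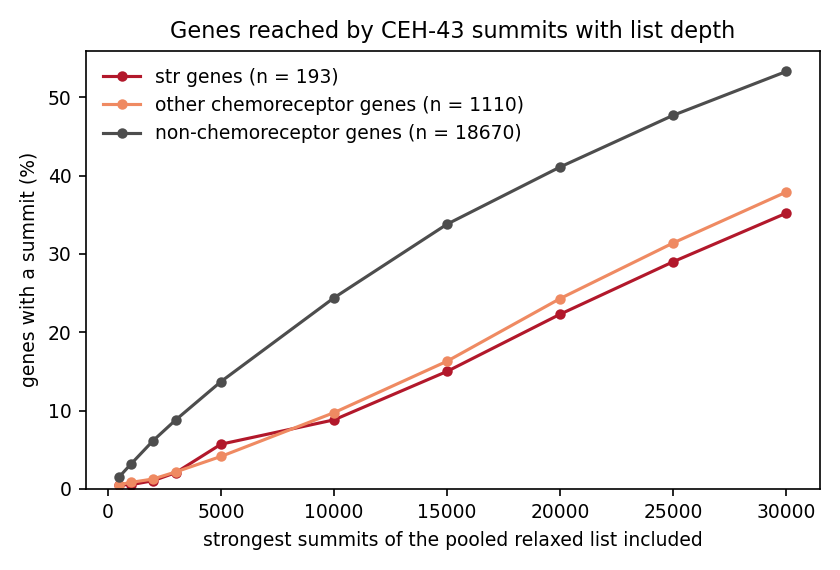
Percent of str genes (n = 193), other chemoreceptor genes (n = 1110) and non-chemoreceptor genes (n = 18670) with a summit, against the number of strongest summits taken from the relaxed list of both replicates. The str curve reaches 2.07% at 3000 summits, 8.81% at 10000 and 35.2% at 30000, below the non-chemoreceptor curve at every depth plotted and close to the curve of the other chemoreceptor genes.

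The plot of share against list depth shows that str genes were reached late. The 500 strongest summits reached 0.518% of str genes, 0.541% of other chemoreceptor genes and 1.54% of non-chemoreceptor genes. The 3000 strongest reached 4 str genes (2.07%), against 2.16% of other chemoreceptor genes and 8.81% of non-chemoreceptor genes. At 10000 summits the share was 8.81% of str genes, 9.73% of other chemoreceptor genes and 24.4% of non-chemoreceptor genes. At 20000 it was 22.3% of str genes, 24.3% of other chemoreceptor genes and 41.1% of non-chemoreceptor genes. The gap to the non-chemoreceptor genes was thus smaller in proportion at 20000 and 30000 summits than at 3000. At the 5000 strongest, 11 str genes were reached (5.70%), more in proportion than the other chemoreceptor genes (4.14%) and less than the non-chemoreceptor genes (13.7%).

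The 68 str genes held 92 summits: 49 genes had 1 summit, 15 had 2, str-81, str-185 and str-206 had 3, and str-208 had 4, the strongest with a signal of 57.8. The other 125 had none. Of neighbouring summits at the same gene, 11 pairs had overlapping intervals, and whether such a pair is 1 site was not tested. The str summits had a median signal of 49.6 and a median rank of 18062, against 54.2 and 14820 for summits at all genes outside str. Summits at other chemoreceptor genes were similar to str summits, at 49.5 and 18204. A signal above 100 was seen at 4 of the 92 str summits (4.35%) and at 9.25% of the 17098 summits at all genes outside str. At other chemoreceptor genes it was 3.12%.

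**Figure D2:**
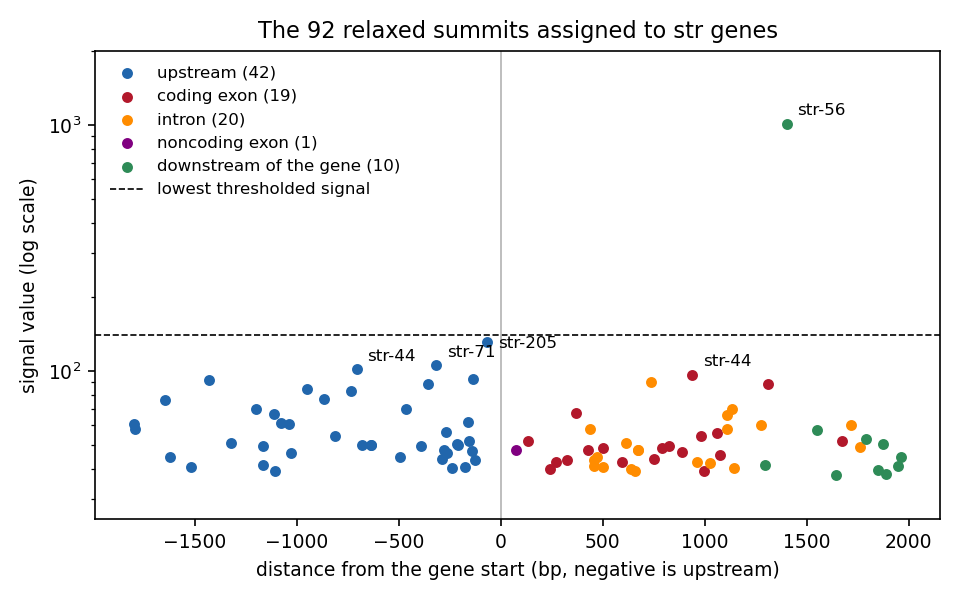
Signal (log scale) of the 92 relaxed summits assigned to str genes against distance from the gene start in bp, coloured by place. The str-56 summit at 1010 stands alone above the lowest thresholded signal of 139, drawn as a dashed line, and str-205 at 131 lies just below it.

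Of the receptor genes themselves, str-205 came next after str-56. Its summit lay 65 bp upstream of the start, with a signal of 131 and rank 1183, just under the lowest signal of the thresholded list (139). In replicate 1 it had a signal of 93.4 and rank 530, and in replicate 2 a signal of 39.5 and rank 10321. The site was thus strong in replicate 1 and weak in replicate 2. Its window held neither TAATTA nor TAATTG.

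The next summit, at str-71, lay 316 bp upstream of the start, inside the protein-coding gene rocf-1, with a signal of 105 and rank 2186. Its signal was 45.6 (rank 3596) in replicate 1 and 60.5 (rank 2306) in replicate 2. The window was 20.8% GC and held TAATTA more than once, as printed above.

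str-44, a receptor of AWA olfactory neurons whose expression depends on feeding state, had a pair of summits. The upstream one, 704 bp from the start, had a signal of 101 and rank 2426, with a signal of 47.9 in replicate 1 and 57.7 in replicate 2. The other lay in a coding exon, 939 bp past the start, with a signal of 96.5, and 46.7 in replicate 1 and 48.9 in replicate 2. Both sites were in both replicates' lists at similar ranks, between 2719 and 5055, and both windows held a homeodomain core. Among the 4 str genes with a summit in the 3000 strongest (str-56, str-205, str-71 and str-44), str-44 was the one with 2 of them.

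Other summits were unequal between replicates. The str-81 summit, 137 bp upstream with a signal of 92.8, was in the list of replicate 2 (signal 37.6, rank 11868) and had no summit within 100 bp in that of replicate 1. The str-206 summit, 354 bp upstream with a signal of 88.5, was in that of replicate 1 (signal 59.2, rank 1681) and not in that of replicate 2. The str-185 summit, in a coding exon 1310 bp past the start with a signal of 88.4, was in that of replicate 2 alone (signal 67.9, rank 1533). The str-79 summit on X, 867 bp upstream with a signal of 77.1, was also in replicate 2 alone (signal 57.0). By contrast the str-221 summit, 1432 bp upstream and inside the neighbouring receptor gene str-222, had a signal of 92, and 68.1 (rank 1130) in replicate 1 and 64.1 (rank 1871) in replicate 2. Its window is a tandem repeat: shifted by 48 bp, 52 of 53 bases matched, and it was the 1 window of 92 with at least 80% matching at any shift tried.

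The other members among the 20 str genes of highest signal were str-109 (signal 90.4, in an intron), str-245 (84.4, upstream and inside aex-5), str-175 (82.6, upstream), str-173 (70.0, in an intron), str-263 (69.9, upstream), str-156 (69.8, upstream), str-118 (67.6, in a coding exon and inside yif-1), str-255 (66.6, upstream and inside srbc-19), str-82 (61.8, upstream), str-85 (61.6, upstream and inside str-87) and str-261 (60.8, upstream). Over these 20 genes the strongest summit was upstream of the start in 15, in the gene body in 4 and downstream of the gene in 1. It had a counterpart within 100 bp in both replicates' lists in 12 of the 20 genes and in 1 replicate's list in the other 8. It lay inside another protein-coding gene in 7. With such neighbours, which gene a summit belongs to was not tested. None of these counts was made for summits of similar signal at other genes, so no trait of str genes is read from them.

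The str genes of known expression named next had no summit assigned to them in the list from both replicates, in contrast to str-44. This depends on the rule of the nearest start, as the summits near str-1 and odr-10 show. str-1, a receptor gene of AWB neurons, had its nearest summit 1471 bp past its start, with a signal of 131 and rank 1159. It was assigned to C42D4.19, the gene that lies between str-1 and str-44 on chromosome IV. str-2, expressed in 1 of the AWC neurons, had its nearest summit 3693 bp upstream (signal 53.2, rank 15388), and str-3, of ASI neurons, 6208 bp upstream (signal 51.4). str-217, a receptor of ADL neurons needed for the response to the repellent DEET, had its nearest summit 7921 bp past its start (signal 41.4). In the list of replicate 1, str-217 had 1 assigned summit, and in that of replicate 2 it had 0. odr-10, the diacetyl receptor of AWA neurons and a relative of the str genes outside the naming rule, had a summit 1968 bp upstream with a signal of 127 and rank 1269 that was nearer to the start of C53B7.6.

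At the limit of 2000 bp, the summits of str-230 (1947 bp, signal 41.1) and str-7 (1965 bp, signal 44.6) were just inside, and the summits of str-199 (2012 bp, signal 50.4) and str-261 (2093 bp, signal 52.9) just outside. Any summit of the relaxed list, whichever gene it was assigned to, lay within 2000 bp of the start of 91 of 193 str genes. For the 125 str genes with none assigned, the nearest summit was a median of 4798 bp away and between 296 and 108634 bp. The count of 91 and these distances were not taken for other genes, so they give no comparison.

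The place of str genes in the genome differed from that of other genes. Chromosome V held 157 str genes, 102 on its arms and 55 in its central 50%, and chromosome IV held 27. The remaining 9 were on X (5), III (2), II (1) and I (1). Of str genes 81.3% were on V, against 24.5% of other genes, and 56.5% were on chromosome arms, against 44.6%. The other genes of the V arms also had few thresholded summits, with 20 of 2268 (0.882%), and the str genes there had 1 of 102 (0.980%, 0.0248 to 5.34). In the V centre 0 of 55 str genes had a thresholded summit, which allows a share of up to 5.45% (exact upper bound 6.49%), against 2.10% of other genes. On chromosome IV it was 0 of 27, which allows up to 11.1% (exact upper bound 12.8%), against 2.64%. Within the V arms the thresholded shares were thus near each other, but the str share there rests on str-56 alone. Without summits near small RNA genes it was 0 of 102 (exact upper bound 3.55%), against 0.75% of other genes. In all of these regions the number of str genes was too small to show whether the shares differ.

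When the shares of the other genes were weighted to the chromosomes of the str genes, the thresholded share of the other genes was 1.80%, and with arm or centre added it was 1.57%. With chromosome, arm or centre and assignable length together it was 1.56%, so that the str share of 0.518% was 0.333 times as high, in place of 0.174 times without weights. Weighting by assignable length alone left it at 2.94%. Without summits near tRNA genes the fully weighted share was 1.43% and the ratio 0.362. The str share rests on a single gene in each of these ratios. Without replicate 2 the str genes were 2 and the unweighted ratio was 0.363. Without summits near small RNA genes both the unweighted and the fully weighted ratio were 0.

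For the relaxed list from both replicates, the share of other genes was 45.2% weighted by chromosome, 46.1% by chromosome and arm or centre, and 45.7% with assignable length as well. Against these the str share of 35.2% gave ratios of 0.780, 0.765 and 0.772, compared with 0.672 without weights. Without summits near tRNA genes the fully weighted values were 45.4% and 0.776, close to the values with the tRNA summits kept.

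**Figure D3:**
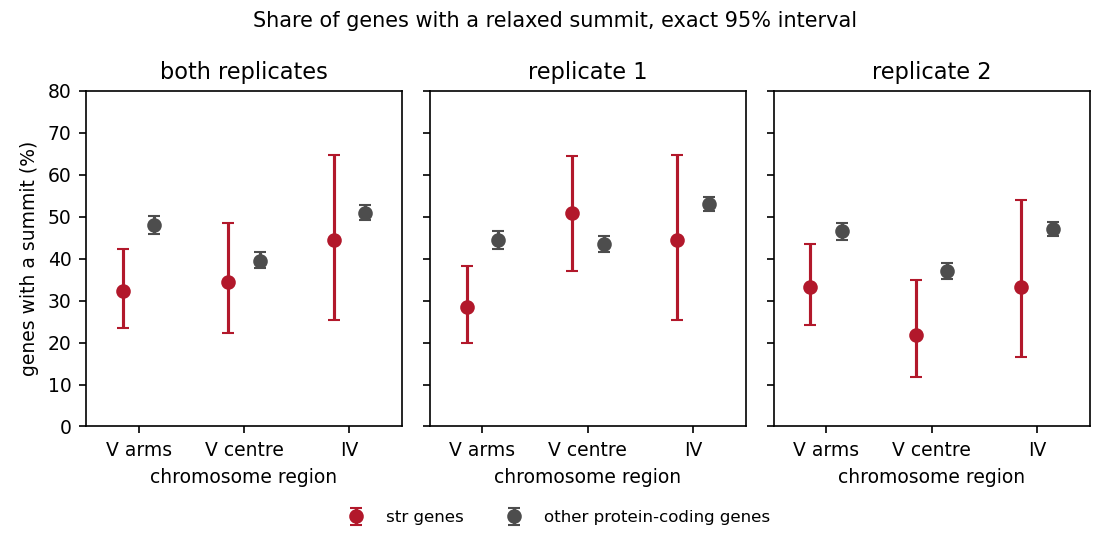
Percent of str genes (left point of each pair) and other protein-coding genes (right point) with a relaxed summit on the arms of chromosome V, in its central 50% and on chromosome IV, in the list from both replicates and in each replicate's list, with exact 95% intervals. On the V arms the str share is lower in all 3 lists (32.4%, 28.4% and 33.3%), and in the V centre it is above the other genes in replicate 1 (50.9%) and below them in replicate 2 (21.8%).

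The replicates differed most in the centre of chromosome V. Over all chromosomes, 74 str genes (38.3%, 31.5 to 45.6) had a summit in the list of replicate 1, against 53.2% of other genes and 53.0% of all genes. In replicate 2 it was 59 str genes (30.6%, 24.2 to 37.6), against 49.6% of other genes and 49.4% of all genes. The ratio was thus 0.721 in replicate 1 and 0.617 in replicate 2. An assigned summit in both lists, at any distance from each other, was found for 31 str genes. This count was not made for other genes. On the V arms the str share was 28.4% in replicate 1 and 33.3% in replicate 2, against 44.4% and 46.6% of other genes. In the V centre it was 50.9% (37.1 to 64.6) in replicate 1 and 21.8% (11.8 to 35.0) in replicate 2, against 43.6% and 37% of other genes. The str genes of the V centre were thus above the other genes in replicate 1 and below them in replicate 2. In the list from both replicates 32.4% of str genes (23.4 to 42.3) had a summit on the V arms, against 48.0% of other genes. The V centre had 34.5% (22.2 to 48.6) against 39.5%, and chromosome IV 44.4% (25.5 to 64.7) against 51%.

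Agreement between replicates was also counted summit by summit. Of the 92 str summits, 19 had a summit within 100 bp in both replicates' lists (20.7%). The share was 23.8% of summits at other chemoreceptor genes and 30.4% of summits at all genes outside str. Each replicate's list matched 47 of the 92, and 17 were matched by neither (18.5%). Matched by neither were 16.7% at other chemoreceptor genes and 13.8% at all genes outside str. Counting only summits matched in both replicates' lists, 17 of 193 str genes had one (8.81%), against 22.1% of other genes. The str summits were also weaker than those at all genes outside str, as given above, and the difference at equal rank was not tested.

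Because many str genes are recent duplicates, the share of sequence near each start that occurs once in the genome was counted, using words of 32 bases over the assignable length. Reads from a repeated stretch can be lost or misplaced, and the aligner's handling of them was not given in the sources used here. The mean share of unique words was 89.5% for str genes, 92.9% for other chemoreceptor genes and 93.3% for non-chemoreceptor genes. The medians were closer, at 98.7%, 98.7% and 99.7%. For str genes with a relaxed summit the mean was 95.8% (median 99.4%), and for those without it was 86.1% (median 98.2%). The part of repeated sequence in the str shares was not tested beyond the values that follow. On the V arms the mean was 83.5% for str genes and 89.8% for non-chemoreceptor genes, and the medians were 97.3% and 96.9%. At 0% stood 9 str genes, the pairs of str-257, str-258 and str-267 together with str-265, str-76 and str-119. They are counted in, and lower, the str means above over all genes, on the V arms and without a relaxed summit. Means without these 9 genes were not taken. The 9 genes lay within 159 kb on an arm of chromosome V, from 2401357 to 2560739. They had no summit in the list from both replicates or in either replicate's list. The 118 other genes of the genome with no unique word had none in these lists either, so that 0 of 127 genes allow a share of up to 2.36% (exact upper bound 2.86%).

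**Figure D4:**
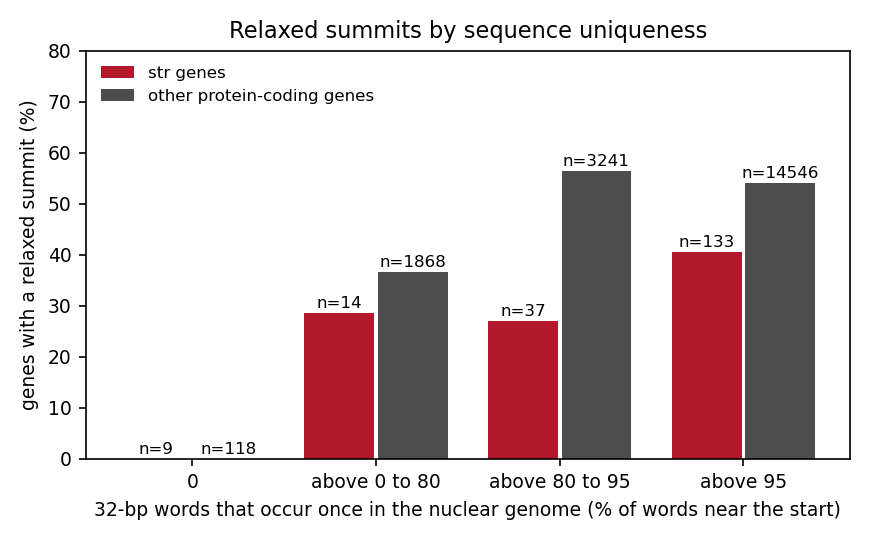
Percent of str genes and other protein-coding genes with a relaxed summit, by the percent of 32-base words near the start that occur once in the nuclear genome; n is the number of genes. Both bars are at 0 where no word is unique, and the str bar is lower in the other classes, at 40.6% against 54.0% where over 95% of words are unique.

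Among genes with over 95% unique words, 54 of 133 str genes had a relaxed summit (40.6%), against 54.0% of 14546 other genes. The ratio was 0.752 there, closer to 1 than the 0.672 over all genes. In the class above 80 and up to 95% the shares were 27.0% of 37 str genes and 56.4% of others, and above 0 and up to 80% they were 28.6% of 14 and 36.6% of others. The str share was lower in each of these 3 classes. Weighted by chromosome, arm or centre and class of uniqueness, the share of other genes was 44.4%, a ratio of 0.794. For the replicates the same weights gave 0.864 in replicate 1 and 0.720 in replicate 2. In the thresholded list 1 of the 133 str genes with over 95% unique words had a summit (0.752%), against 3.27% of others.

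Around the gene start, the summit density of str genes was below that of non-chemoreceptor genes in each of 8 bins of 500 bp. Within 500 bp upstream there were 20.5 summits per 100 kb at str genes, 18.5 at other chemoreceptor genes and 46.3 at non-chemoreceptor genes. In the 500 bp past the start the density was 11.4 at str genes, 17.2 at other chemoreceptor genes and 28.5 at non-chemoreceptor genes. From 500 to 1000 bp upstream it was 11 at str genes, 13.8 at other chemoreceptor genes and 31.1 at non-chemoreceptor genes. Both str and non-chemoreceptor genes thus had more summits in the 500 bp upstream than in the bin on either side, at a lower level in str genes. This bin was the highest for non-chemoreceptor genes but not for str genes. The str density was 21.2 from 1000 to 1500 bp upstream and 23.9 from 1500 to 2000 bp past the start. Over the 8 bins the str density moved between 11 and 23.9, with 5 to 19 summits in each. The gap to non-chemoreceptor genes was smallest in the last bin, 1500 to 2000 bp past the start, at 23.9 against 26.2.

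**Figure D5:**
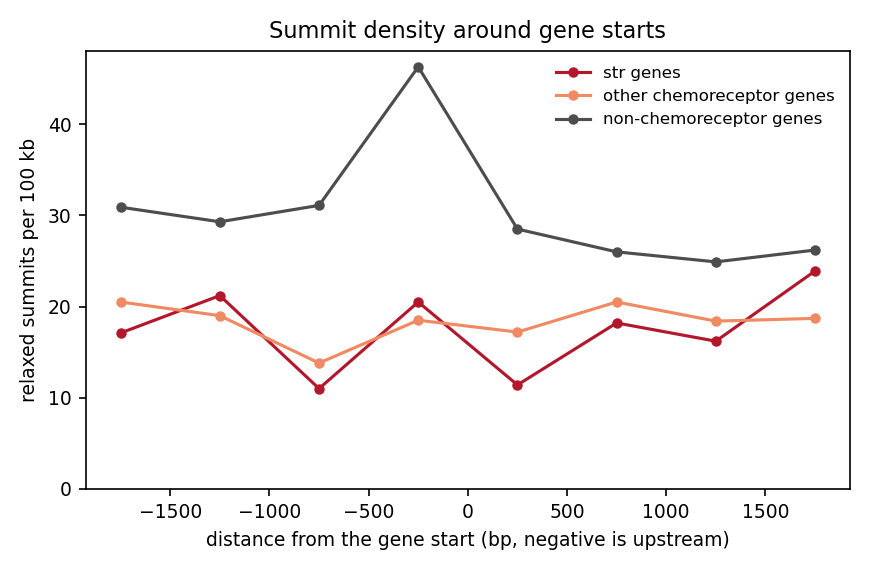
Relaxed summits per 100 kb of assignable length in bins of 500 bp around the gene start for str genes, other chemoreceptor genes and non-chemoreceptor genes. The non-chemoreceptor curve peaks at 46.3 in the 500 bp upstream, where str genes are at 20.5 and other chemoreceptor genes at 18.5.

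The annotated start is itself less certain for str genes. In 154 of the 193 (79.8%) the gene starts at its start codon, with no 5′ untranslated sequence annotated, against 77.9% of other chemoreceptor genes and 19.7% of non-chemoreceptor genes. The share with a relaxed summit was 34.4% for these str genes and 38.5% for the 39 with an annotated leader. In non-chemoreceptor genes the shares were 43.5% and 55.7%. The str shares were below those of non-chemoreceptor genes in both classes of start.

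By place, 42 of the 92 str summits were upstream of the start (45.7%), 20 in introns, 19 in coding exons, 1 in a noncoding exon and 10 downstream of the gene (10.9%). At other genes 51.3% were upstream and 5.78% downstream. The median gene length was 1604 bp for str genes and 2036 bp for other genes, and its part in the downstream shares was not tested. Within 500 bp upstream lay 19 str summits (20.7%), against 23.2% at other genes. Inside the gene itself lay 43.5% of str summits, against 42.9% of summits at other genes. Inside some other gene lay 26 of the 92, 18 of them inside a protein-coding gene. The counts inside some other gene were not made for summits at other genes. Summits within 100 bp of a small RNA gene were 2 (2.17%), near the 1.73% of summits at other genes. They were at str-56 and at str-166, the second near a small nuclear RNA gene (F54D8.7). None of the 92 was within 100 bp of a tRNA gene, against 1.13% of summits at other genes.

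The homeodomain core was not scarce near str genes. TAATTA or TAATTG, searched on both strands, stood in 85 of 193 str promoters (44%), defined as 250 bases before to 50 after the start, against 44.5% of promoters of other chemoreceptor genes, 35.0% of all promoters outside str and 35.1% of all promoters. Over the whole assignable length there were 1.90 core words per kb at str genes, 1.80 at other chemoreceptor genes and 1.45 at all genes outside str. The promoters were 33.2% GC at str genes and 34.2% at other genes (medians). Within 50 bp of a summit the core stood at 28 of 92 str summits (30.4%), against 32.1% of summits at other chemoreceptor genes and 25.8% of summits at all genes outside str. Among the 42 upstream str summits it stood at 15 (35.7%). This share was not counted for upstream summits at other genes, so it gives no comparison. These are counts of letters, and the words alone do not mark a site in use.

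The share with a summit was between 31.6% and 36.8% by the kind of gene that stood next to a str gene. For 68 str genes the nearest other start was that of another str gene, and 33.8% of them had a relaxed summit. For 19 it was that of another chemoreceptor gene (31.6%), and for 106 that of a gene outside these families (36.8%). The class of 19 held only 6 genes with a summit, and whether these shares differ was not tested. Among the related families, the share with a relaxed summit was 34.3% in srd, 35.9% in srh, 38.5% in srj and 47.5% in sri, all of the superfamily to which str belongs. The str share of 35.2% was thus near the srd and srh shares and below the sri share. In the thresholded list, the chemoreceptor genes outside str with the highest signal were sre-23 (960, within 100 bp of a small RNA gene), srd-43 (500, within 100 bp of a tRNA gene) and sri-5 (268).

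Other genes of the sensory pathway were counted from fixed lists, with the same rule. Of 19 genes of sensory signalling (G proteins, cyclic nucleotide-gated and TRPV channel subunits, guanylyl cyclases, trafficking factors, other signalling genes and the receptor gene odr-10), 0 had a thresholded summit and 7 had a relaxed one (36.8%). Of 19 regulators of chemoreceptor expression, 2 had a thresholded summit and 12 a relaxed one (63.2%). These 2 were kin-29, a salt-inducible kinase that regulates chemoreceptor genes (signal 170, rank 617, 206 bp upstream), and daf-19, the RFX factor of ciliated neurons (signal 175, rank 582, 261 bp upstream). The same shares were 0.518% and 35.2% for the str genes and 2.95% and 52.3% for all genes.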

How the data were processed

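ChIP-seq peak lists of 2 biological replicates of 1 group were analysed, so no condition is compared. The authors deposited narrowPeak lists on ce11 (the assembly also named WBcel235) with a signal value per peak. Per the text files beside the deposited lists, relaxed lists were derived from each replicate's alignment, or both, and a control alignment, and the thresholded list by an irreproducible discovery rate step. Aligner, caller, cutoff and control type: not given in the sources used here. The signal scale is unknown and its range differed between lists, so peaks were ranked by it within a list. Read depth is unknown. The deposited q-values were not used.

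Gene starts came from Ensembl release 115 and sequence from the RefSeq copy of the assembly. Summits were assigned to the nearest protein-coding start within 2000 bp. Weighted shares give the other genes the str genes' make-up by chromosome, arm or centre, and 4 classes of assignable length. They replace a comparison with drawn genes, and no p-value is given. Scripts in Python 3.11.15 (numpy 2.4.6, pandas 2.3.3, scipy 1.17.1, matplotlib 3.10.9) were tested on simulated data. Named genes are those with a thresholded summit, the 20 of highest relaxed signal, receptors of known role (str-44 is among the 20), and list members with thresholded summits. Of the symbols in the fixed lists, 1 (nsy-5) matched no gene. The members and lists were chosen with earlier results of these data known. Genes are not replicates, and intervals do not measure the spread between cultures. The alternatives tried were each replicate alone, other distances and start sites, leaving out tRNA summits, stronger summits and summits in both replicates, and, chosen after seeing the data, small RNA genes, overlapping intervals and sequence uniqueness.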

Additional observations from a re-analysis of the deposited data

How the results depend on the processing

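The thresholded count of 1 str gene was 0 with a distance of 1000 bp, since the str-56 summit is farther, and 0 without summits near small RNA genes, and 1 under the other planned and added settings that kept both replicates. With the strongest summits of 1 replicate alone it was 1 to 2 (2 for replicate 1, which adds str-205). The relaxed count of 68 was 59 to 74 with 1 replicate alone. It was 29 with the 15000 strongest summits, 4 with the 3000 strongest summits and 17 with summits in both replicates' lists, as fewer summits are used. The ratio of 0.672 was 0.617 to 0.721 with 1 replicate alone. It was 0.574 at 1000 bp, 0.458 with the 15000 strongest, 0.246 with the 3000 strongest and 0.398 with summits in both lists. It was 0.752 for genes with at least 95% unique words. The cause of these shifts in the ratio was not tested. The small RNA, overlap and uniqueness settings were chosen after seeing the data. In the remaining settings the ratio moved by less than the spread of 0.0738 between replicates (SD, n = 2), and it was below 1 in every setting tried.

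No paired analysis was possible because there is 1 group and no test. Read depth is unknown, so the absence of a summit is no measure of absent binding. With 1 thresholded gene, the thresholded ratios carry wide counting error.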

Other observations

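Pseudogenes of the family were counted in the same way. Of 33 str pseudogenes in the RefSeq annotation, 23 of them on chromosome V, 0 had a thresholded summit, which allows a share of up to 9.09% (exact upper bound 10.6%), and 6 had a relaxed summit in the list from both replicates (18.2%), 7 in replicate 1 (21.2%) and 6 in replicate 2 (18.2%). Over all nuclear protein-coding genes the shares were 2.95% in the thresholded list and 52.3% in the relaxed list from both replicates. Other pseudogenes were not counted. Among the chemoreceptor families outside str with at least 100 genes, the share with a relaxed summit was lowest in srx (28.7%, 101 genes). It was highest in srw (44%, 109 genes). Smaller families lay on both sides, such as sre (54 genes) at 51.9% and srxa (17 genes) at 17.6%. The str family, at 35.2%, lay between srx and srw.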
